A study of Danio rerio with 6 samples.

Results

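CXCL12, also called stromal cell-derived factor 1 (SDF1), was measured by 4 of the 326 gene assays of a real-time PCR panel. The assays bear the symbols CXCL12a, SDF1a, CXCL12b and SDF1b, and they were taken by symbol. In a RefSeq gene table of zebrafish, CXCL12a and SDF1a matched the single gene cxcl12a, and CXCL12b and SDF1b the single gene cxcl12b. CXCL12a matched by accession, CXCL12b by symbol, and SDF1a and SDF1b by synonym only. Each ligand thus had 2 matched assays, and whether both read the same transcript was not tested. The panel held 0 symbols beginning with CXCR4, so the receptor side of the axis was not measured. The samples were whole zebrafish embryos at 24 hours post fertilization, injected with the plasmid ptGFP1-NOD1 (the NOD1 group) or with the empty plasmid ptGFP1 (the control group). Each group had 3 biological replicates with 1 plate each, and RNA came from 150 to 200 embryos per group on average. No promoter, dose or strain is given in the sources used here, and the labels do not say whether replicates came from separate spawnings, so the p-values measure the spread between these plates.

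CXCL12 is a CXC chemokine that draws migrating cells along its gradient by way of the receptor CXCR4, while the receptor ACKR3 (CXCR7) takes the ligand up and shapes the gradient. Zebrafish carries the paralogs cxcl12a and cxcl12b. In the zebrafish embryo Cxcl12a guides primordial germ cells and the posterior lateral line primordium through Cxcr4b, and Cxcl12b acts through Cxcr4a on endodermal and endothelial cells. NOD1 is an intracellular sensor of bacterial peptidoglycan fragments.

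The measured quantity is the threshold cycle (Ct), the PCR cycle at which a well's fluorescence reaches a set value. A well with more template gets there earlier, at a lower Ct. Levels are given against the reference genes ACTB, GAPDH and Tuba1: their average Ct on a plate, less the Ct of the assay there, which is a log2-like scale if the product doubles in each cycle. A Ct over 35 or undetermined was set to 35. Amplification efficiency and primer positions are not given in the sources used here, so levels of different assays are not amounts on a common scale. Between 314 and 321 of the 326 gene wells of a plate had a Ct under 35. All 4 CXCL12 and SDF1 assays had a Ct under 35 in all 3 control plates and so passed the filter, which kept 319 genes. The injected gene was higher in the NOD1 group, with nod1 levels of -3.20, -1.49 and -2.26 in NOD1 replicates 1 to 3, against -10.81, -10.94 and -10.97 in control replicates 1 to 3. The mean reference Ct was 18.3 ± 0.102 in NOD1 and 17.6 ± 0.136 in control plates (SD, n = 3 each), later by 0.655 cycles (two-sided exact permutation test, p = 0.1, the smallest value available to 3 plates against 3). The positive PCR control wells had a Ct of 18.14 ± 0.114 in NOD1 and 18.04 ± 0.233 in control plates (exact permutation p = 0.6, n = 3 each), and the reverse transcription control wells 21.50 ± 0.136 in NOD1 and 21.18 ± 0.176 in control plates (exact permutation p = 0.2, n = 3 each). The control plates were run on 2 days and the NOD1 plates on 1 later day, and the effects of run and group therefore cannot be told apart.

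One of the 4 assays, CXCL12a, rose in NOD1 embryos, by 3.83 ± 0.48 (SE) on the log2 scale, 14.2-fold. The assay SDF1a, matched to the same gene, differed by 0.021 ± 0.16, and SDF1b, the assay with the earliest Ct of the 4 in control plates, by 0.034 ± 0.11. CXCL12b was without a Ct on 1 NOD1 plate and within the range of the control Ct values on the others. On the level scale those other NOD1 wells lay above the control wells. With values over 35 missing, 2 of the 4 assays were called higher, where 36.9% of 317 genes were. The added CXCL12b call depended on the reference genes, as given below. The count of 1 higher member of 4 stands beside 37.0% of all 319 genes called higher and 15.4% called lower in the same limma fit, 52.4% in either direction. The share of higher calls moved with the scaling, at 118 higher and 49 lower genes with the reference genes, 76 and 140 under global mean scaling, 81 and 113 under global median scaling, 59 and 78 under quantile normalization, 66 and 72 under cyclic loess, and 127 and 26 for GAPDH alone. The median difference of the 4 assays was 0.027, against 0.32 over all 319 genes, and the median over all genes was -0.29 with the global mean and -0.16 with the global median. The lower median of the 4 assays rests on the undetermined CXCL12b well. With values over 35 missing it was 0.31, against 0.30 over all genes, and without NOD1 replicate 3 it was 0.30, against 0.31 over all genes. In whole embryos, a change in the number of cells that make a transcript and a change of the transcript per cell cannot be told apart.

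CXCL12a crossed the threshold at 23.81, 25.14 and 25.40 cycles in NOD1 replicates 1, 2 and 3. In control replicates 1, 2 and 3 it crossed at 28.35, 28.29 and 27.22 cycles. The latest NOD1 well was thus earlier than the earliest control well, and the groups did not overlap, as for 63.9% of all tested genes on the level scale. Its level was -5.59, -6.75 and -7.20 in the NOD1 plates, against -10.74, -10.54 and -9.74 in the control plates. The difference had a 95% interval of 2.63 to 5.02 (limma adjusted p = 0.00213), and it was the rank 5 rise among all 319 genes, counting those that did not pass. It passed the threshold under all 20 alternatives run, at 3.22 to 4.17. Not all of these could test it. A higher ceiling, late values left missing and no filter could not change its levels, since all its wells crossed well before the ceiling. Run day as a block cannot separate run from group, since no NOD1 plate shared a day with a control plate. The global mean scaling brought the CXCL12a difference to 3.22, a fold of 9.30. NOD1 replicate 1 held the highest CXCL12a level and the lowest nod1 level of the 3 NOD1 plates.

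SDF1a crossed the threshold at 23.92, 23.59 and 23.58 cycles in NOD1 replicates 1 to 3, and at 23.00, 23.17 and 23.01 cycles in control replicates 1 to 3. All 3 NOD1 wells were later, by 0.634 cycles on average, close to the 0.655 cycles by which the reference genes were later. As a level, SDF1a was at -5.70, -5.20 and -5.37 in the NOD1 plates, against -5.39, -5.42 and -5.53 in the control plates. These levels overlapped, and the 95% interval of the difference ran from -0.38 to 0.42 (limma adjusted p = 0.925). That interval lies wholly below the interval of CXCL12a. The call on SDF1a depended on the scaling, since with the global mean it fell by 0.59 (adjusted p = 0.00813) and with the global median by 0.45 (adjusted p = 0.0267).

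**Figure D1:**
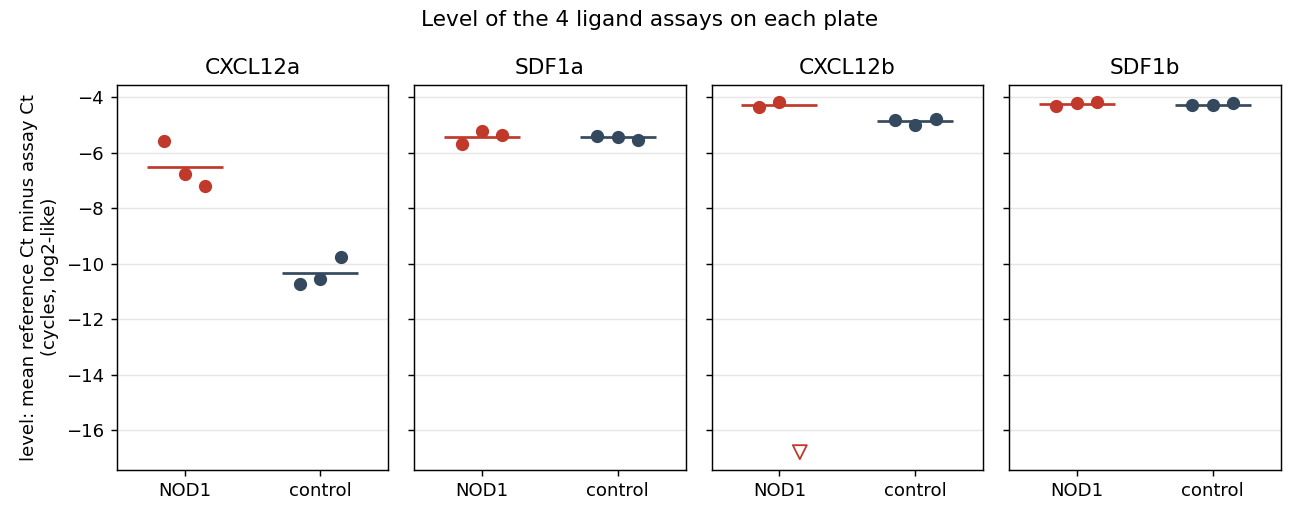
Level of each of the 4 assays on each plate (average Ct of the reference genes minus that of the assay, in cycles, log2-like), with NOD1 plates in red, control plates in dark blue, points in replicate order and bars at the mean of the wells with a Ct. The open triangle is the undetermined CXCL12b well of NOD1 replicate 3, set to 35 cycles and left out of the bar. CXCL12a is the assay whose NOD1 points, from -7.20 to -5.59, stand well above its control points.

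The 2 assays matched to cxcl12a can be set against each other on the same plate, where the reference genes cancel. CXCL12a minus SDF1a was 0.11, -1.55 and -1.83 in NOD1 replicates 1 to 3, and -5.35, -5.12 and -4.21 in control replicates 1 to 3. CXCL12a thus lagged SDF1a by over 4 cycles on every control plate and by under 2 cycles on every NOD1 plate, with 1 NOD1 plate at which it came first. The gap averaged -1.09 ± 1.05 in NOD1 and -4.89 ± 0.603 in control plates (SD, n = 3 each). It moved by 3.81 ± 0.59 (SE; 95% interval 2.33 to 5.28; limma adjusted p = 0.00444 over 318 genes taken relative to the SDF1a well, of which 50.3% were called). The exact permutation test over the plates gave p = 0.1, the smallest possible with 3 against 3. Without NOD1 replicate 1 the gap moved by 3.21, a fold of 9.24 in place of 13.98 (limma adjusted p = 0.00649). Which transcripts the primers read was not tested. The genomic DNA control wells were undetermined on every plate. Whether those wells can detect zebrafish DNA or the injected plasmid was not tested.

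CXCL12b crossed the threshold at 22.58 and 22.57 cycles in NOD1 replicates 1 and 2, and NOD1 replicate 3 was undetermined. The control replicates 1 to 3 crossed at 22.41, 22.75 and 22.27 cycles. The 2 NOD1 wells with a Ct lay within the range of the control wells. On the same NOD1 replicate 3 plate SDF1b crossed at 22.39 cycles. With the undetermined well set to 35 cycles, CXCL12b differed by -3.59 ± 3.48 (SE) on the log2 scale, which did not pass the threshold (limma adjusted p = 0.406). The authors' deposited table treats the well in the same way and lists CXCL12b at a fold of 0.0833 with p = 0.439, against 14.19 (p = 0.00252) for CXCL12a, 1.01 (p = 0.899) for SDF1a and 1.02 (p = 0.486) for SDF1b.

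With that well left missing, CXCL12b levels were -4.37 and -4.19 in NOD1 replicates 1 and 2, against -4.80, -5.00 and -4.79 in control replicates 1 to 3. The difference was then 0.59 ± 0.15 (SE), 1.502-fold, and passed the threshold (limma adjusted p = 0.0265, with 36.9% of 317 genes called higher in that fit). That call rests on 2 NOD1 plates and on the reference genes. With the well missing, CXCL12b differed by -0.028 under the global mean (adjusted p = 0.877), by 0.093 under the global median (adjusted p = 0.665) and by 0.40 with ACTB alone (adjusted p = 0.0494). Of 12 undetermined gene wells on the 6 plates, 3 belonged to an assay with a Ct under 30 on all of the other 5 plates. These were CXCL12b on NOD1 replicate 3, the kinase gene JAK1 on control replicate 1 and EDG2, a lysophosphatidic acid receptor gene, on control replicate 2. Among the 12 wells, PIAS2 was undetermined on all 6 plates. Late wells that gave a Ct are not in this count, among them MAP2K6 at 37.13 cycles on NOD1 replicate 3.

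SDF1b crossed the threshold at 22.52, 22.58 and 22.39 cycles in NOD1 replicates 1 to 3, and at 21.91, 22.02 and 21.70 cycles in control replicates 1 to 3. All 3 NOD1 wells were later, by 0.621 cycles on average. Relative to the reference genes the levels were -4.31, -4.19 and -4.19 in NOD1, against -4.30, -4.27 and -4.22 in control. They overlapped, and the difference of 0.034 had a 95% interval of -0.23 to 0.30 (limma adjusted p = 0.80). Like SDF1a, SDF1b fell with the global mean, by 0.57 (adjusted p = 0.00383), and with the global median, by 0.44 (adjusted p = 0.0209).

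On a plate, CXCL12b minus SDF1b was -0.061 and 0.0037 in NOD1 replicates 1 and 2, and -0.51, -0.73 and -0.57 in control replicates 1 to 3. With the undetermined well of NOD1 replicate 3 set to 35 cycles the gap was -12.61 there, and the movement of -3.62 ± 3.53 (SE) did not pass (limma adjusted p = 0.403 relative to the SDF1b well, where 54.1% of 318 genes were called). With the well missing, the gap moved by 0.57 ± 0.14 (SE; 95% interval 0.22 to 0.92; limma adjusted p = 0.0194, with 54.1% of 316 genes called). CXCL12b and SDF1b crossed within 1 cycle of each other on the 5 plates where both gave a Ct. CXCL12a and SDF1a did so on 1 plate, NOD1 replicate 1. Different assays are not on a common scale, so closeness in Ct is not a measure of agreement between them.

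**Figure D2:**
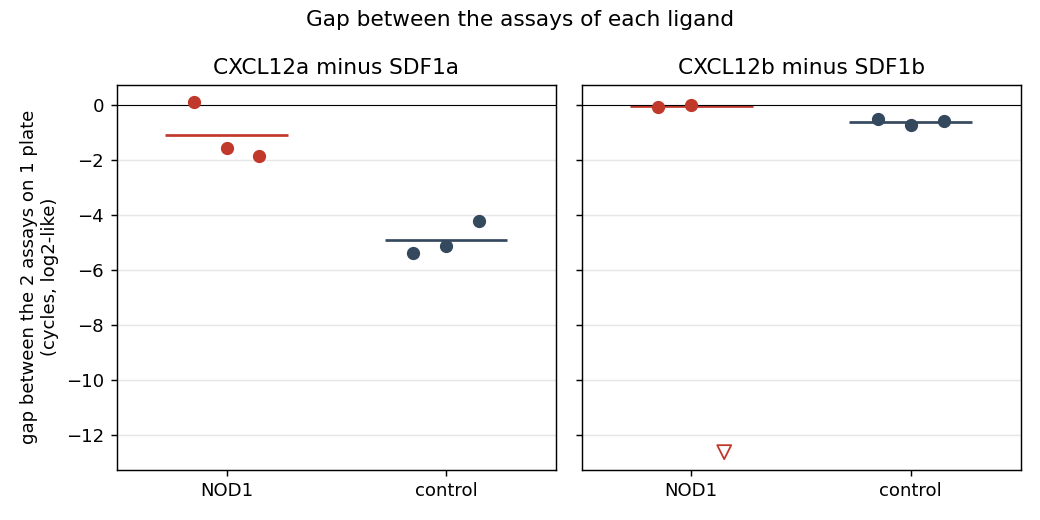
Gap between the 2 assays matched to a ligand on each plate (cycles, log2-like), with NOD1 plates in red, control plates in dark blue and bars at the mean of plates with both Ct values. The CXCL12a minus SDF1a gap is between -5.35 and -4.21 in control plates and between -1.83 and 0.11 in NOD1 plates, and the open triangle marks the undetermined CXCL12b well.

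The assays also differed in how closely their plates agreed. Over all 319 genes the median SD of the level between plates was 0.239 in NOD1 and 0.174 in control plates. CXCL12a had an SD of 0.829 in NOD1 and 0.528 in control plates, larger than that of 297 and of 270 of the 319 genes. SDF1b had an SD of 0.0678 in NOD1 and 0.0373 in control plates, and only 19 and 15 genes varied less. SDF1a was near the median in NOD1 plates (0.253) and below it in control plates (0.0744), and CXCL12b was below it in control plates (0.114).

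**Figure D3:**
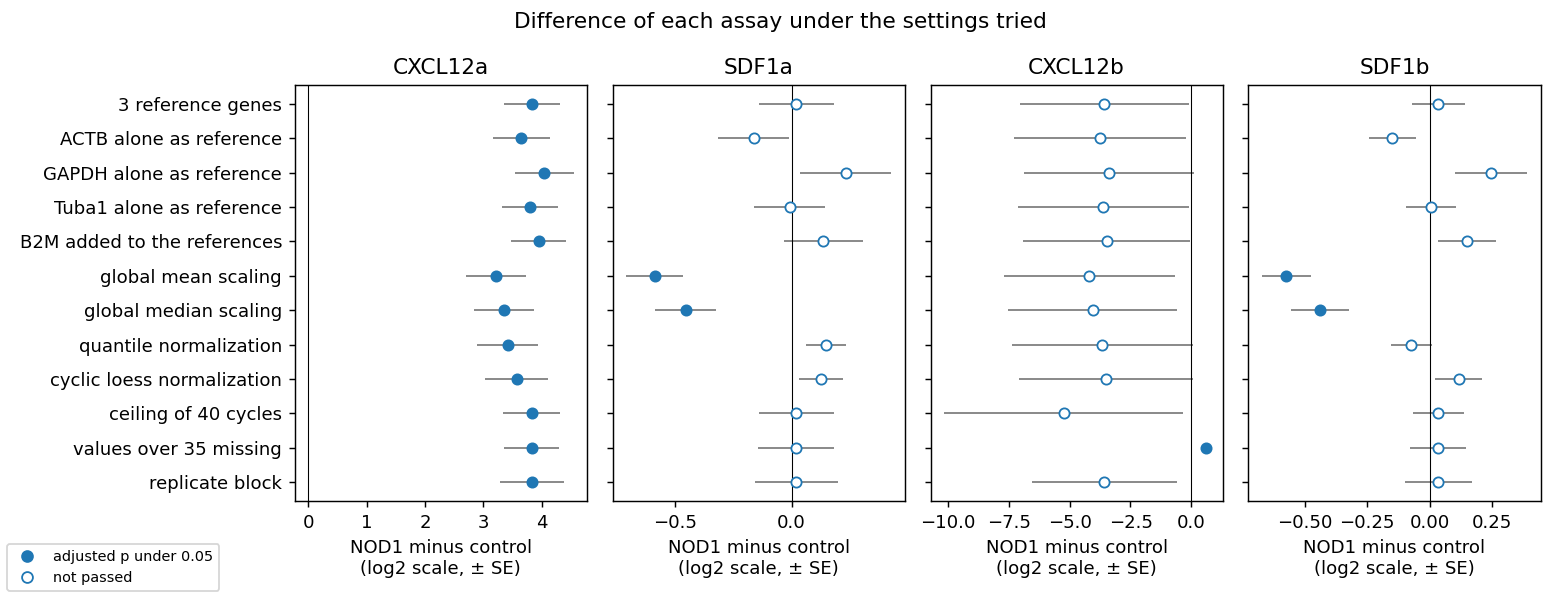
Difference of each assay, NOD1 minus control on the log2 scale with SE bars, under the 3 reference genes and 11 other settings, with filled points where the limma adjusted p was under 0.05. The horizontal axes differ between panels. CXCL12a is between 3.22 and 4.04 in all of them, SDF1a and SDF1b lie on either side of 0 depending on the scaling, and CXCL12b leaves its large negative values when the undetermined well is missing.

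Likeness of pattern was taken as the root mean square difference, over the 6 plates, of levels centred on each gene's own control mean. With control means removed, it follows largely from the NOD1 minus control differences given above. It is therefore not separate evidence on them. The genes nearest to CXCL12a were the chemokine CCL-Cub (0.652), the interleukin-12 receptor chain IL12RB2 (0.864) and the interleukin-17 gene IL17A/F1 (0.886), with differences of 3.60, 3.19 and 3.01 on the log2 scale. All 3 control wells of CCL-Cub and 2 of the 3 of IL17A/F1 had been set to 35 cycles, so those differences depend on the ceiling. SDF1a, the other assay matched to cxcl12a, ranked 203rd of 318 in likeness to CXCL12a, at 2.78, which restates the distance between their differences. SDF1a was nearest to CHUK, an I-kappa-B kinase subunit (0.037), to the JNK kinase MAPK8 (0.059) and to SMAD5, a mediator of BMP signals (0.078). SDF1b was nearest to the reference gene Tuba1 (0.056) and the BMP mediator SMAD1 (0.065). Tuba1 is part of the reference mean, so any assay that is flat on the level scale lies near it. CXCL12b, with its undetermined well, was nearest to the MAP kinase kinase MAP2K6 (0.461), which was also past 35 cycles on the plate of NOD1 replicate 3 alone, at 37.13 cycles. The next genes, the proteasome activator PSME1 (4.26) and 18s rRNA (4.36), were far from it.

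The panel held 7 pairs of symbols that matched 1 RefSeq gene, and such matches by synonym may join paralogs. The difference between the responses of a pair was 3.81 for CXCL12a minus SDF1a and -3.62 for CXCL12b minus SDF1b. The second value comes from the undetermined well set to 35 cycles, and with that well missing it was 0.57, opposite in sign and smaller than in the hamp1 and TLR4a pairs. Among the other 5 pairs it was between 0.124 and 3.07 in size. The largest belonged to the iron hormone genes hamp1 and hamp2, where hamp1 rose by 2.01 (limma adjusted p = 0.0104) and hamp2 differed by -1.07 (adjusted p = 0.373). The Toll-like receptor symbols TLR4a and TLR4ba were 0.859 apart, a difference that was not tested. TLR4a differed by 0.056 (adjusted p = 0.738) and TLR4ba fell by 0.80 (adjusted p = 0.0142). TLR4a also fell under global mean scaling (by 0.55, adjusted p = 0.0257), quantile normalization (by 1.07, adjusted p = 0.00327) and cyclic loess (by 0.95, adjusted p = 0.00519), settings under which TLR4ba fell too. The Toll adaptor symbols TICAM1 and TRIF differed by 0.32 and 0.041, and neither passed (adjusted p = 0.0696 and 0.870). The interleukin-6 receptor symbols IL6R and IL-6RA rose by 0.62 and 0.88 (adjusted p = 0.0225 and 0.0158), and the transcription factor symbols STAT6 and STAT7 fell by 0.97 and 0.85 (adjusted p = 0.0192 and 0.0142). Some of these calls were lost with 1 plate left out. TLR4ba lost its call without control replicate 3 (adjusted p = 0.0507) and STAT6 without control replicate 1, 2 or 3 (0.0596, 0.0512 and 0.0507). IL6R lost it without NOD1 replicate 2 or 3 (0.0712 and 0.0626) and without control replicate 1 or 3 (0.0729 and 0.0622). IL-6RA lost it without NOD1 replicate 2 (0.0521), control replicate 1 (0.0534) or control replicate 2 (0.0507). Of all 20 alternatives run, STAT6 passed under 16 and STAT7 under 19, with a highest adjusted p of 0.0606 and 0.0561. The scaling moved the interleukin-6 receptor values further. IL6R was 0.014 with the global mean (adjusted p = 0.917), 0.15 with the global median (0.312), 0.11 under quantile normalization (0.363), 0.37 under cyclic loess (0.0530) and 0.44 with ACTB alone (0.0565). IL-6RA was 0.27 with the global mean (0.320) and 0.41 with the global median (0.176), turned to -0.14 under quantile normalization (0.686) and -0.080 under cyclic loess (0.808), and lost its call with the replicate block (0.0524).

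**Figure D4:**
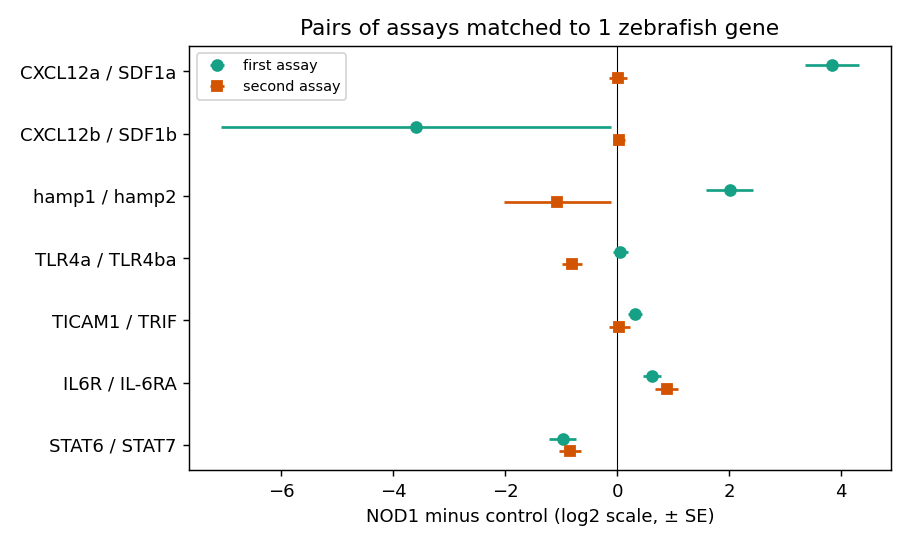
NOD1 minus control difference on the log2 scale, with SE bars, for the 7 pairs of assays that matched 1 zebrafish gene, first assay as a circle and second as a square, in order of the distance between them. CXCL12a and SDF1a lie 3.81 apart, the CXCL12b point carries the undetermined well set to 35 cycles (with it missing the pair differs by 0.57), and the 3 lowest pairs lie within 0.275 of each other.

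Among the other CXC ligands on the panel, 5 of 9 kept symbols rose in the limma fit, 0 fell and 4 did not pass, where 37.0% of all 319 genes were called higher and 15.4% lower. The count of lower ligands was also 0 at an unadjusted p under 0.05 and in an equal-variance test per gene. The share of all genes called lower in those tests is not given here. Their median difference was 1.01 on the log2 scale, against 0.32 over all genes. CXCL11L, a relative of the interferon-inducible ligand CXCL11, rose by 1.86 ± 0.30 (SE, limma adjusted p = 0.00443), but not under quantile normalization (0.50, adjusted p = 0.145) or cyclic loess (0.32, adjusted p = 0.367). The symbols CXCL-C13c, CXCL-C24e, CXCL-C13d and CXCL-C5c rose by 1.68, 1.59, 1.42 and 1.01. Of 20 alternatives run, CXCL-C13d passed under 20, CXCL-C24e under 19, CXCL-C13c under 18 and CXCL-C5c under 17. Their lowest values there were 0.81, 0.33, 0.40 and 0.23, in that order. The neutrophil attractant IL8, at 0.97 ± 0.77, did not pass (adjusted p = 0.329). CXCL14, CXC46 and CXCL-C1c differed by 0.27, -0.19 and -0.43 without passing. The tenth symbol, CXC64, was dropped by the filter on late wells. The count of higher and lower CXC ligands was 4 and 3 under global mean scaling and 5 and 0 under global median scaling. It was 2 and 1 under quantile normalization and 1 and 0 under cyclic loess, so these counts depended on the scaling. The counts over all genes under these scalings are given above. The share of ligands called higher was near that of all genes under quantile normalization and below it under cyclic loess.

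**Figure D5:**
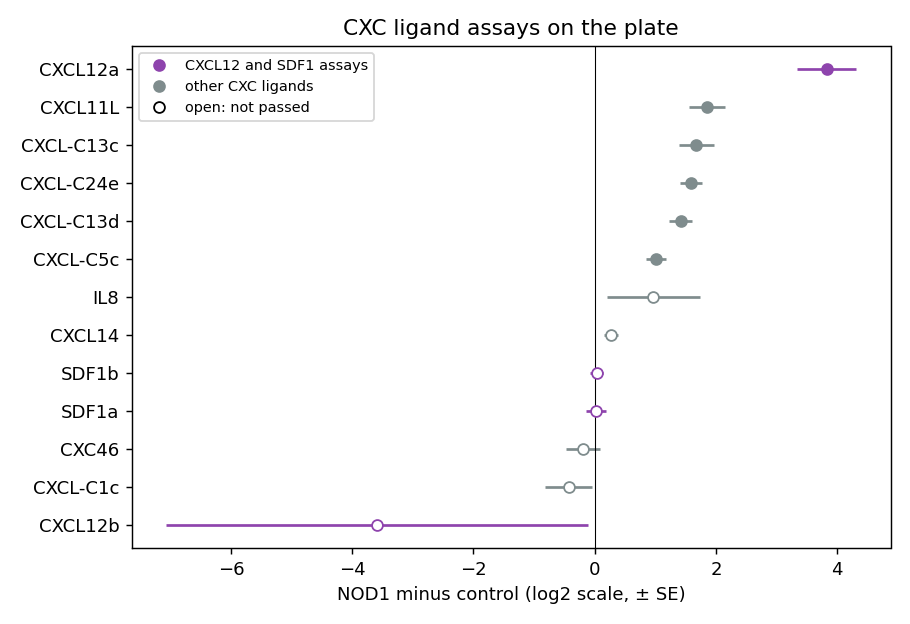
NOD1 minus control difference on the log2 scale, with SE bars, for the 4 CXCL12 and SDF1 assays (purple) and the 9 other CXC ligands kept (grey), filled where the limma adjusted p was under 0.05. CXCL12a has the largest rise, at 3.83, while SDF1a and SDF1b lie at 0.021 and 0.034 and the open CXCL12b point carries the undetermined well.

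Of 30 kept CC and XC chemokine and receptor genes of the panel's 33, 22 rose in the limma fit, 0 fell and 8 did not pass, with a median difference of 1.57, against 37.0% higher, 15.4% lower and a median of 0.32 over all 319 genes. The count of lower genes was also 0 at an unadjusted p under 0.05 and in the equal-variance test per gene, which called 16 higher. The shares over all genes in those tests are not given here, so these counts have no background beside them. CCL-Cub and CCL21L had a control mean Ct at the ceiling of 35, so they were kept through their NOD1 wells. They could differ only upward. CCR9b, CCR6b and CCL-C25t, also called higher, had control mean Ct values of 34.87, 34.10 and 33.92, so they had little room to fall. Leaving late values missing does not remove this limit for genes whose control wells were partly under 35. With values over 35 missing, 28 genes of the list were tested, 20 rose and 0 fell, where 36.9% of 317 genes were called higher. The 3 largest differences among the 30 were CCL-C25y-like at 6.43, CCL-Cub at 3.60, which depends on the ceiling, and CCR7, a homing receptor of lymphocytes and dendritic cells, at 3.09. The counts of higher and lower genes were 15 and 1 under global mean scaling and 17 and 1 under global median scaling. They were 6 and 2 under quantile normalization and 8 and 2 under cyclic loess. The counts over all genes under these scalings are given above. Under quantile normalization the share of the 30 called higher was near that of all genes, with a median difference of 0.39, against -0.091 over all genes. CCL-C25y-like was 86.3-fold higher, a fold that changed to 33.6 on leaving out control replicate 1 and to 168 on leaving out control replicate 3.

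Of 17 panel genes that act downstream of CXCR4, among them JAK, STAT, MAP kinase and AKT genes, 2 rose, 4 fell and 11 did not pass, with a median difference of -0.24, against 37.0% higher, 15.4% lower and a median of 0.32 over all 319 genes. The 2 that rose were the NF-kappa-B genes NFKB1 and NFKBIA, by 0.56 and 0.85. No JAK, STAT, MAP kinase or AKT gene of the list was called higher. The list missed the panel's MAP2K2a and MAP2K2b, which differed by -0.14 (limma adjusted p = 0.384) and 0.78 (adjusted p = 0.00451). The transcription factors STAT5.1 and STAT5.2 fell by 1.11 and 1.03 (limma adjusted p = 0.0208 and 0.00270). For STAT5.1 the adjusted p rose past 0.05 on leaving out NOD1 replicate 1 (0.0598), NOD1 replicate 3 (0.0586), control replicate 1 (0.0611) or control replicate 2 (0.0627). JAK1 had the largest difference, 4.24 ± 3.45 (SE, adjusted p = 0.332), with its undetermined well in control replicate 1, and was 0.11 without that plate. With the global mean 0 of the 17 rose and 12 fell, with a median difference of -0.85, against -0.29 over all genes. Under that scaling more of all 319 genes were called lower than higher, as given above. Of the 2 further guidance or retention factors, the macrophage growth factor receptor CSF1R fell by 1.17 (adjusted p = 0.00270) and the growth factor receptor PDGFRA differed by -0.14 (adjusted p = 0.785).

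CXCR4 is carried by blood cells, and 5 blood and leukocyte markers were on the panel. Of these 2 rose, 1 fell and 2 did not pass, with a median difference of 0.32, the same as over all genes, of which 37.0% were called higher and 15.4% lower. The counts of these 5 markers are thus near the background. None was at the ceiling of 35 cycles on any plate, and the summed level of the 5 ran from -40.70 to -39.20 in NOD1 plates, against -41.44 to -41.07 in control plates. That sum joins markers that rose with 1 that fell. The groups also did not overlap for 63.9% of all tested genes, so the separation is not particular to these markers. The myeloid factors SPI1 and CEBPB rose by 0.81 and 1.48 (limma adjusted p = 0.0146 and 0.00178), and CSF1R fell as above. The transcription factor GATA3 and the pan-leukocyte gene PTPRC differed by 0.32 and -0.011 without passing. No cells were sorted, so how much of each marker came from blood cells was not measured. SPI1 did not pass under global mean scaling (0.20, adjusted p = 0.297), global median scaling (0.34, adjusted p = 0.132) or quantile normalization (0.62, adjusted p = 0.0628), or without control replicate 3 (0.78, adjusted p = 0.0507). Their part in the CXCL12a result was not tested.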

How the data were processed

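Real-time PCR plates of 3 NOD1 and 3 control embryo samples were used. The raw Ct values (unit named score) were deposited by the authors with no normalization and, per the file headers, read by SDS software at a manual fluorescence threshold of 0.2. The authors deposited a second table with a delta Ct score per group, a ratio or fold of NOD1 over control and a p-value. Its delta Ct was recovered from the plates for 326 of 326 genes (tolerance 1e-06 cycles) with a ceiling of 35 and the 3 reference genes, and its p-value for 326 of 326 with an equal-variance test (relative tolerance 1e-04).

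A gene was kept, as were 319, if at least 1 group had all 3 of its wells under 35 cycles. Levels were fitted with limma 3.58.1 (lmFit, eBayes, two-sided) in R 4.3.3, with Benjamini-Hochberg adjustment over all kept genes and a threshold of 0.05; every adjusted p is from limma. The gap between 2 assays was tested by refitting all genes relative to the second assay's well. The fit was also run on simulated data, but the outcome is not reported here and lends it no support. Symbols were matched to RefSeq assembly GRCz12tu, 215 by accession, 48 by symbol, 39 by synonym, and 24 not at all. Named were the 4 assays, nod1, reference genes, the 3 nearest genes per assay, all other kept CXC ligands, the 3 largest differences of each further list and all same-gene pairs; EDG2 and the remaining blood markers were named after their values were seen, and 1 of the nearest genes is not reported here. Members and lists were chosen with earlier results of these data known. Same-numbered replicates correlated at 0.113, 0.031 and -0.022 in their deviations from the group means, so the numbers were not taken to pair the plates.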

Additional observations from a re-analysis of the deposited data

How the results depend on the processing

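The CXCL12a rise and the movement of the CXCL12a minus SDF1a gap kept their direction and, except in the exact permutation test of the gap (3.81, p = 0.1, the smallest 3 against 3 plates allow), their call. Settings that act only on late wells or on the filter could not change the levels of CXCL12a or SDF1a, so they do not test these results. Without 1 plate at a time, 129 to 154 genes were called, CXCL12a was at 3.37 to 4.17, SDF1a at -0.091 to 0.16, CXCL12b at -5.72 to 0.59, SDF1b at 0.014 to 0.073, the CXCL12a gap at 3.21 to 4.17, the CXCL12b gap at -5.73 to 0.57 and the reference Ct at 0.588 to 0.724 cycles. SDF1a was -0.59 under global mean scaling, -0.45 under global median scaling, -0.16 with ACTB alone, -0.0080 with Tuba1 alone, and, without NOD1 replicate 2, NOD1 replicate 3 or control replicate 3, -0.091, -0.0056 and -0.021. SDF1b was -0.57 under global mean scaling, -0.44 under global median scaling, -0.073 under quantile normalization and -0.15 with ACTB alone. Only the global mean and median values of these passed. CXCL12b was 0.59 and its gap 0.57 with values over 35 missing, and likewise without NOD1 replicate 3, the plate of the undetermined well; with the well missing CXCL12b was 0.093 under the global median and 0.40 with ACTB alone. The replicate number as a block left CXCL12a at 3.83 (adjusted p = 0.00977), called 151 genes in place of 167 and changed no call on the 4 assays or their gaps. Run day as a random block, chosen after seeing the data, called 212 genes and put CXCL12a at 3.78. The correlation within a day was estimated at -0.335. No NOD1 plate shared a day with a control plate, so this fit cannot adjust the group difference for run.

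Among 29 other named genes, 506 of 579 values were unchanged in direction and call, 40 lost a call, 8 gained one and 25 turned sign. The turned values were, with the global mean, CXCL14 -0.34, TLR4a -0.55, TICAM1 -0.29 and TRIF -0.57; with the global median, CXCL14 -0.20, TLR4a -0.42, TICAM1 -0.16 and TRIF -0.43; with quantile normalization, IL8 -0.25, TLR4a -1.07, TICAM1 -0.31, TRIF -0.58 and IL-6RA -0.14; with cyclic loess, IL8 -0.22, TLR4a -0.95, TICAM1 -0.049, TRIF -0.35 and IL-6RA -0.080; with ACTB alone, TLR4a -0.13 and TRIF -0.14; and with GAPDH alone, CXC46 0.018. Without 1 plate at a time, CXC46 ranged from -0.41 to 0.031, TRIF from -0.10 to 0.22, hamp2 from -1.79 to 0.014 and TLR4a from -0.012 to 0.15. The cause was not tested. The 3 plates in a group allow no exact p under 0.1.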
